A study of Mus musculus with 10 samples.

Results

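Border-associated macrophages are the resident macrophages of the meninges, the perivascular spaces and the choroid plexus. They carry CD11b and CSF1R as microglia do, but they are known for scavenging and endocytic receptors that microglia of the healthy parenchyma hold at low levels. They take up proteins, haemoglobin and hyaluronan at the blood and cerebrospinal fluid borders of the brain. The listed marker genes of these cells, followed here by name, were Mrc1, Lyve1, Cd163, Pf4, Ms4a7, Cbr2 and F13a1. All 7 of 7 had reads, out of 46152 genes counted, and 6 of them were abundant enough to be tested.

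The RNA came from CD11b-selected brain cells of adult C57BL/6J mice. One group (Vehicle, n = 5, 2 male and 3 female mice) was gavaged for 8 days with 0.1% Tween 80 and 0.5% hydroxymethyl propyl-cellulose, and the other (GW2580, n = 5, 2 male and 3 female mice) with 80 mg/kg/d of GW2580, an inhibitor of the CSF1R kinase, over the same 8 days. Each library came from 1 mouse after perfusion, Accutase digestion, a Percoll gradient and magnetic selection, a selection that does not separate border-associated macrophages or blood myeloid cells from microglia, since all carry CD11b. The comparison asks whether RNA of the border macrophage markers in such a preparation differed after CSF1R inhibition. In bulk RNA, fewer cells of a type and less RNA per cell cannot be told apart.

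Between 12550418 and 20854218 fragments were assigned to genes in the Vehicle libraries and between 13228819 and 26079343 in the GW2580 libraries. The share of unique fragments outside annotated exons averaged 55.2 ± 5.21% with Vehicle and 61.3 ± 9.68% with GW2580 (SD, n = 5). On the first principal component of the abundant tested genes, which held 47.1% of the variance, Vehicle 5 (-77.9) lay beside GW2580 1, 3 and 4 (-46.4 to -37.8), GW2580 5 (45.8) lay beside Vehicle 1 to 4 (35.0 to 40.5), and GW2580 2 (5.20) lay between. Whether labels of libraries were exchanged was not tested, so all groups follow the labels as deposited, and the marker differences are given with and without Vehicle 5 and GW2580 5. Csf1r itself, the gene of the inhibited receptor, averaged 2881 ± 1403 CPM (reads scaled to the library size and its TMM factor, SD, n = 5) in Vehicle libraries and 6994 ± 4836 CPM in GW2580 libraries (log2 fold change 1.28, SE 0.56, edgeR unadjusted p = 0.0394, adjusted p = 0.318). In what follows a gene is past the thresholds when it differed by over 2-fold and its edgeR p was below 0.05 before adjustment. Of 28419 genes tested, 3046 (10.7%) were past them, 1141 (4.01%) higher and 1905 (6.7%) lower with GW2580. After Benjamini-Hochberg adjustment over all genes the smallest p was 0.28, so 0 genes had an adjusted p under 0.05 while 4186 had an unadjusted p under 0.05.

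Of the 6 tested markers, 4 had a higher mean and 2 a lower mean with GW2580. The scavenger and endocytic receptors Mrc1, Lyve1 and Cd163 and the transglutaminase gene F13a1 were on the higher side. The membrane protein gene Ms4a7 and the carbonyl reductase gene Cbr2 were on the lower side. Only Mrc1 was past the fold change and unadjusted p thresholds, 1 of 6 markers beside the 10.7% of all tested genes, and the median log2 fold change of the 6 was 0.96 beside -0.03 over all tested genes. In 0 of the 6 markers were the 5 Vehicle libraries wholly separated from the 5 GW2580 libraries, beside 3.03% of all tested genes.

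**Figure D1:**
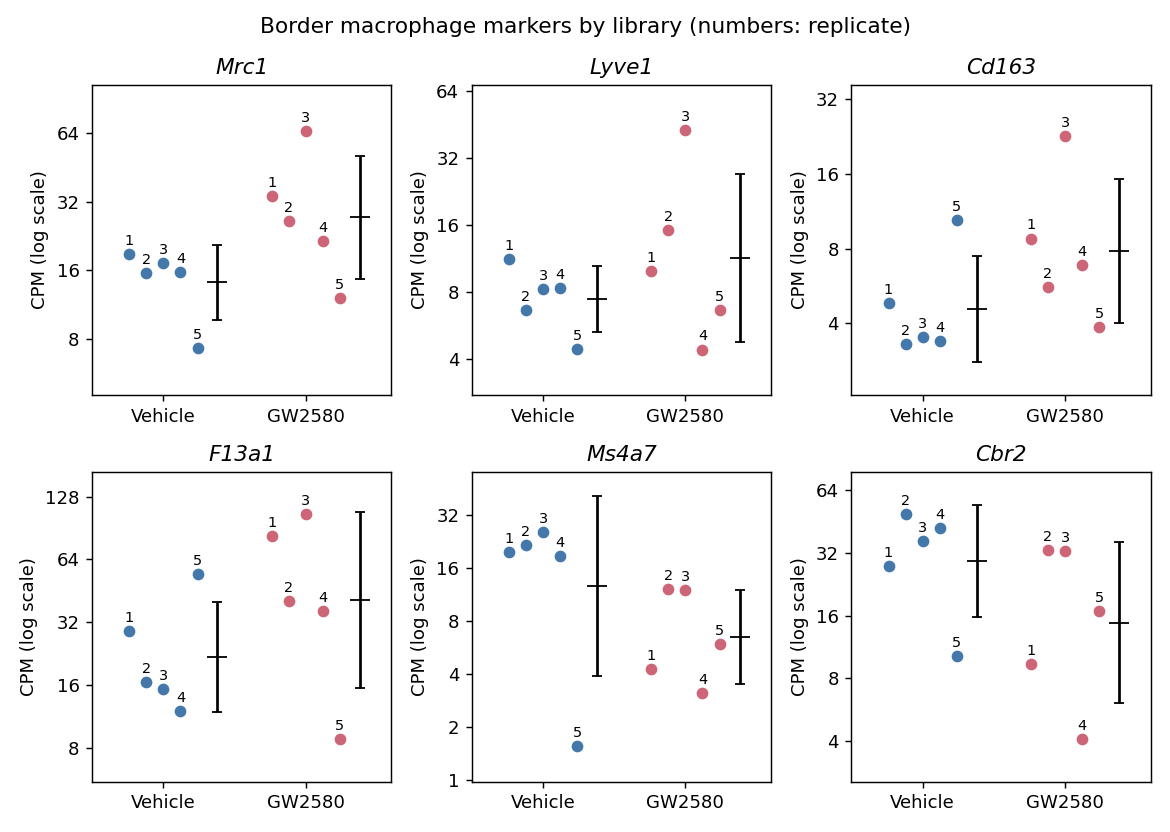
CPM of the 6 tested markers in each library on a log scale, Vehicle in blue and GW2580 in red, with replicate numbers above the points. Black bars give the mean and SD of the log2 values. GW2580 3 is the highest library of 10 for Mrc1, Lyve1, Cd163 and F13a1, and Vehicle 5 lies outside the range of Vehicle 1 to 4 for all 6 genes.

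The start regions of 4 markers are shown because these genes take both directions in the comparison. They are the RefSeq sequences on GRCm38.p6 from 250 bases before to 50 bases from the transcript start on, each on the strand of its gene. Mrc1 is at chr2:14229164-14229463 (+), F13a1 at chr13:37050195-37050494 (-), Ms4a7 at chr19:11336097-11336396 (-) and Cbr2 at chr11:120731972-120732271 (-). Capitals mark each GAGGAA (or TTCCTC, the same letters on the other strand), the core of sites for PU.1, a transcription factor of all macrophages, and each TGCTGA (or TCAGCA), a core of sites for the MAF factors, which act in macrophages.
Mrc1: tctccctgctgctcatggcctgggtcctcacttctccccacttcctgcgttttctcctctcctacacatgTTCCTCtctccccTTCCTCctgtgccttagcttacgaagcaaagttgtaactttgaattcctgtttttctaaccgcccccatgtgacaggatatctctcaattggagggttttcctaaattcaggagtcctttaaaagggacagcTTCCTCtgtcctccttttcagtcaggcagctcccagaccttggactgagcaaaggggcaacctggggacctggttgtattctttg
F13a1: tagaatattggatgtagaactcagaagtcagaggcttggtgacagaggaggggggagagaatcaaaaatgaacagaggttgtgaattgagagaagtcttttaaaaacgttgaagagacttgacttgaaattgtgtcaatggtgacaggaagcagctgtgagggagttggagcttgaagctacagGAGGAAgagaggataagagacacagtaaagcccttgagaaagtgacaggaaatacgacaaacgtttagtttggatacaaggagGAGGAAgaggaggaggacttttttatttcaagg
Ms4a7: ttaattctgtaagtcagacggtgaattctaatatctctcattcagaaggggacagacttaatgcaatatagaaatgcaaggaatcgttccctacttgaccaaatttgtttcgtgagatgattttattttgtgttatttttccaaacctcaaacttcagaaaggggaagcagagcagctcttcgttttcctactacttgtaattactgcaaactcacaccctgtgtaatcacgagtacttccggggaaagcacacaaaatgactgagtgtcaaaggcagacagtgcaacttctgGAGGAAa
Cbr2: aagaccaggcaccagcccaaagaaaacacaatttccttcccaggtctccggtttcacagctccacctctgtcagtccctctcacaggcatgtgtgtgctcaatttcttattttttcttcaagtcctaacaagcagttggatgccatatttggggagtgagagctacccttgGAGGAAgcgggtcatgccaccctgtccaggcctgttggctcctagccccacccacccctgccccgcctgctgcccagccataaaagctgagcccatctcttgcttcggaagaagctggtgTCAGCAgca
The Mrc1 window held 3 copies of the PU.1 core, which began at positions -180, -167 and -35 when the transcript start is counted as 0. The F13a1 window held 2, at -66 and 17, the Ms4a7 window 1, at 43, and the Cbr2 window 1, at -79. Of the 6 markers with a start region in the table (Mrc1, Cd163, Pf4, Ms4a7, Cbr2 and F13a1), 5 held the PU.1 core in at least 1 window, and Cd163 held neither motif. Some markers had more than 1 window, and counted by window 6 of 8 held the PU.1 core. Among 32851 start regions of all genes, 28.3% held the PU.1 core and 19.5% held the MAF core. The MAF core was in the window of 1 marker, Cbr2, at position 41. No match of one motif overlapped a match of the other. These letters are a description of the windows, and both markers that were higher and markers that were lower with GW2580 held the PU.1 core.

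Mrc1 encodes the mannose receptor, an endocytic lectin of border-associated macrophages. The gene (NCBI gene 17533) lies on chromosome 2 of GRCm38, from 14229414 to 14332023 on the plus strand, with 30 exons. Its level was 18.8, 15.5, 17.2, 15.7 and 7.25 CPM in Vehicle 1 to 5, from 129 to 273 reads. In GW2580 1 to 5 it was 34.0, 26.2, 65.1, 21.5 and 12.1 CPM, from 178 to 1172 reads. GW2580 1 to 4 were above every Vehicle library, and GW2580 5 fell among the Vehicle values. The means were 14.9 ± 4.47 and 31.8 ± 20.3 CPM (SD, n = 5 each), a log2 fold change of 1.10 with an SE of 0.42 (edgeR unadjusted p = 0.0216, adjusted p = 0.281). The two-sided exact permutation test over all choices of 5 of 10 libraries gave p = 0.0873, where 0.00794 is the smallest it can give. Without GW2580 3 the log2 fold change was 0.66 (unadjusted p = 0.0935 in edgeR), and without Vehicle 5 it was 0.92 (unadjusted p = 0.033), so Mrc1 was not past both thresholds without either library.

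Lyve1 encodes a hyaluronan receptor that marks perivascular and leptomeningeal macrophages and also lymphatic endothelium. The gene (NCBI gene 114332) is on chromosome 7, from 110850607 to 110862953 on the minus strand. Vehicle 1 to 5 had 11.3, 6.65, 8.27, 8.33 and 4.44 CPM. GW2580 1 to 5 had 9.91, 15.2, 42.6, 4.40 and 6.64 CPM. The groups overlapped, with 2 GW2580 libraries above all Vehicle libraries and GW2580 4 below all of them. The log2 fold change was 1.02 (SE 0.53, edgeR unadjusted p = 0.0766, adjusted p = 0.382), and the exact permutation test gave p = 0.397. GW2580 3 alone set most of this difference, since without it the log2 fold change was 0.21 (SE 0.39). It was 0.87 without Vehicle 5 (unadjusted p = 0.118, edgeR) and 1.11 without GW2580 5 (unadjusted p = 0.0577).

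Genes of lymphatic endothelium were examined beside Lyve1. Of 5 listed genes, 3 were tested and 0 were past the thresholds, and Pdpn and Ccl21a were at 0 reads in every library. Pdpn is annotated on 2 reference sequences and only uniquely aligned fragments were counted, so its absent reads are no measure of expression. The summed level of the list ranged from 15.8 to 36.0 CPM with Vehicle and from 29.7 to 71.2 with GW2580, with the highest value in GW2580 3. Prox1, the defining transcription factor of lymphatic endothelium, made up most of this sum. It averaged 22.9 ± 6.61 CPM with Vehicle and 37.7 ± 18.0 with GW2580, with its highest level, 68.8 CPM, in GW2580 3. The other tested genes did not share this, as Flt4 averaged 4.86 ± 3.01 and 2.71 ± 1.57 CPM (log2 fold change -0.84, SE 0.50) and Mmrn1 1.39 ± 0.29 and 1.43 ± 0.29 CPM. The part of these cells in the Lyve1 difference was not tested.

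Cd163 encodes the scavenger receptor for haemoglobin bound to haptoglobin. It lies on chromosome 6, from 124304636 to 124330529 on the plus strand (NCBI gene 93671), and shares 1362 of its 4509 exon bases with the antisense lncRNA Gm52877. Fragments that overlapped both genes were left uncounted as ambiguous, so the level of Cd163 is a lower estimate. Vehicle 1 to 5 had 4.84, 3.29, 3.51, 3.39 and 10.4 CPM, and GW2580 1 to 5 had 8.78, 5.60, 22.8, 6.86 and 3.86 CPM. Vehicle 5 was more than double any other Vehicle library, and GW2580 3 was the highest of all 10. The log2 fold change was 0.91 (SE 0.49, edgeR unadjusted p = 0.0871, adjusted p = 0.394) with an exact permutation p of 0.183. It was 0.30 without GW2580 3 and 1.35 without Vehicle 5, where Cd163 was past both thresholds (edgeR unadjusted p = 0.00886, adjusted p = 0.163).

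F13a1 encodes the catalytic subunit of coagulation factor XIII, a transglutaminase that border-associated macrophages share with monocytes and platelets. The gene (NCBI gene 74145) spans 37050244 down to 36867178 on the minus strand of chromosome 13. Its level in Vehicle 1 to 5 was 28.9, 16.6, 15.3, 12.1 and 54.7 CPM. In GW2580 1 to 5 it was 83.2, 40.5, 105, 36.0 and 8.80 CPM. GW2580 5 was the lowest library of 10 and Vehicle 5 the third highest, so the groups overlapped. The log2 fold change was 1.10 (SE 0.58, edgeR unadjusted p = 0.0777, adjusted p = 0.384), as large as that of Mrc1 but with a wider error, and the exact permutation p was 0.238. Without Vehicle 5 it was 1.59 (unadjusted p = 0.01, edgeR) and without GW2580 3 it was 0.73 (unadjusted p = 0.242). Genes of monocytes and granulocytes were examined beside F13a1. All 14 listed genes were tested, 0 were past the thresholds on the higher side and 1 on the lower side, and their summed level ranged from 700.4 to 28729 CPM with Vehicle and from 792.3 to 13056 with GW2580. The sum was lowest in Vehicle 5 (700.4 CPM) and next lowest in GW2580 3 (792.3 CPM), both of them libraries where F13a1 was high. It was 4292 CPM in GW2580 1, where F13a1 was also high (83.2 CPM). It was highest in Vehicle 1 (28729 CPM), where F13a1 was 28.9 CPM, above Vehicle 2 to 4. The genes of highest mean in this list were Ngp, S100a9 and S100a8 (2761, 2166 and 1170 CPM with Vehicle). The sum thus does not tell monocytes from granulocytes. The part of these cells in the F13a1 difference was not tested further.

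Ms4a7 encodes a membrane protein with 4 spanning segments that is widely used to tell border-associated macrophages and their relatives from microglia. It lies on chromosome 19, from 11321039 to 11336146 on the minus strand (NCBI gene 109225). Vehicle 1 to 5 had 19.8, 21.7, 25.6, 18.8 and 1.57 CPM. GW2580 1 to 5 had 4.26, 12.3, 12, 3.12 and 5.96 CPM. All 5 GW2580 libraries were below Vehicle 1 to 4, and Vehicle 5, with 28 reads, was below all 5 of them. With all libraries the log2 fold change was -1.22 (SE 0.58, edgeR unadjusted p = 0.0543, adjusted p = 0.343) and the exact permutation p was 0.302. Without Vehicle 5 it was -1.52 (SE 0.37, unadjusted p = 0.00104, adjusted p = 0.163 in edgeR), and without GW2580 3 it was -1.45 (unadjusted p = 0.0457).

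Cbr2 encodes a carbonyl reductase abundant in tissue-resident macrophages of border and other tissues. The gene (NCBI gene 12409) is on chromosome 11, from 120729485 to 120732025 on the minus strand. Vehicle 1 to 5 had 27.8, 49.1, 36.6, 42.1 and 10.2 CPM, and GW2580 1 to 5 had 9.40, 33.2, 32.8, 4.07 and 16.9 CPM. GW2580 2 and 3 were within the range of Vehicle 1 to 4, while GW2580 1, 4 and 5 were below it. Vehicle 5 was again low. The log2 fold change was -0.78 (SE 0.54, edgeR unadjusted p = 0.168, adjusted p = 0.497) and the exact permutation p was 0.198. Without Vehicle 5 it was -1.01 (unadjusted p = 0.0492, edgeR), past the thresholds, and without GW2580 3 it was -1.06 (unadjusted p = 0.093).

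Pf4 encodes the chemokine CXCL4, which platelets and border-associated macrophages both make. Its reads were 2, 3, 1, 4 and 0 in Vehicle 1 to 5 and 0, 1, 3, 1 and 1 in GW2580 1 to 5, too few for a test or a fold change. The annotation used for the counts lists Pf4 both on chromosome 5 (90772435 to 90773383, plus strand, 588 exon bases) and on a second reference sequence, which gives it 1176 bases in the files, and only uniquely aligned fragments were counted. Of 1867 genes annotated on 2 or more reference sequences, 38.2% had 0 reads in all 10 libraries, against 3.05% of 44285 genes on 1 sequence. Trem2, an abundant microglial receptor gene that is also annotated on 2 sequences, had 2 reads in all libraries together. The low Pf4 count is therefore no measure of Pf4 expression. Platelet and megakaryocyte genes were examined beside Pf4. Of 10 listed, 6 were tested, 0 were past the thresholds in either direction, Gp1bb and Treml1 were at 0 reads in every library, and the summed level ranged from 35.0 to 161 CPM with Vehicle and from 34.3 to 112 with GW2580. Gp1bb, Treml1, Gp1ba and Ppbp are annotated on 2 reference sequences as Pf4 is, so their few or absent reads are no measure of expression either. Of the 6 tested, 2 had a higher and 4 a lower mean with GW2580. Clec1b ranged from 3.90 to 6.66 CPM with Vehicle and from 1.89 to 3.13 with GW2580, without overlap, as in 3.03% of all tested genes. Its log2 fold change was -0.86 (edgeR unadjusted p = 0.0137, adjusted p = 0.28). Gp9 (-0.81) and Itga2b (-0.48) had overlapping groups.

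The size of the differences moved with the scaling, as shown in the plot of fold changes. GW2580 3 had the lowest TMM factor of all libraries (0.691), which raises its CPM values, and GW2580 4 the highest (1.61). With library size alone, which shifted the median of all genes to 0.23, Mrc1, Cd163 and F13a1 were past both thresholds (log2 fold changes of 1.20, 1.03 and 1.28). In that fit 10.5% of all genes were past them. The libraries were also scaled instead to the 14 tested genes of the microglia list, whose own median log2 fold change was 0.51. This moved the median of all genes to -0.40. On that scale Mrc1, Lyve1, Cd163 and F13a1 had log2 fold changes of 0.55, 0.28, 0.12 and 0.32, and none of these 4 had an unadjusted p under 0.05. Ms4a7 and Cbr2 had -1.62 (edgeR unadjusted p = 0.00969, adjusted p = 0.258) and -1.25 (unadjusted p = 0.0206, adjusted p = 0.277) and were both past the thresholds, beside 12.3% of all genes. Relative to microglial RNA, then, Ms4a7 and Cbr2 held their lower levels with GW2580, and none of the other 4 markers was past the thresholds. The direction of all 6 held under each of the 28 other settings tried, including the settings with each library left out. Without GW2580 5 alone, Mrc1, Cd163 and F13a1 were past the thresholds, with log2 fold changes of 1.21, 1.04 and 1.32, in a fit where 17.6% of all genes were past them, while Ms4a7 and Cbr2 had -1.24 and -0.83 and were not past them. With the 2 libraries Vehicle 5 and GW2580 5 left out together, 5 of 6 markers were past the thresholds, beside 22.3% of all genes. Mrc1, Cd163, Ms4a7 and F13a1 had an adjusted p under 0.05 there. The share of all genes with an adjusted p under 0.05 in that fit was not counted, so no result about the markers is drawn from it. Vehicle 5 and GW2580 5 were picked because they lay with the other group, so that fit favours a difference by its construction.

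**Figure D2:**
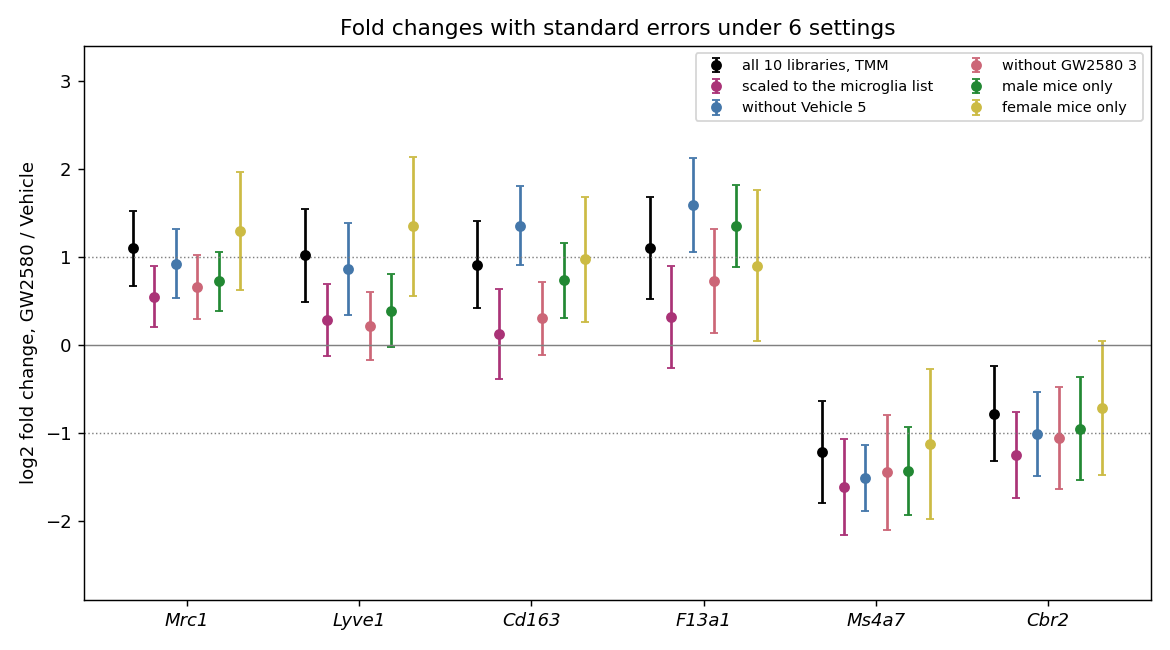
Log2 fold change (GW2580 over Vehicle) with its standard error for each tested marker under 6 settings, with dotted lines at a fold change of 2. The 4 markers on the left stay above 0 and the 2 on the right below 0, but scaling to the microglia list moves all 6 down, to between 0.12 and 0.55 on the left and to -1.62 and -1.25 on the right.

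The contrast between the 2 directions can be read inside each library, where the scaling factor cancels apart from the prior count. The 4 higher and 2 lower genes were grouped after their values were seen, so these differences are a description with no test. The mean log2 CPM of Mrc1, Lyve1, Cd163 and F13a1 minus that of Ms4a7 and Cbr2 was -0.83, -1.90, -1.70, -1.70 and 1.50 in Vehicle 1 to 5. It was 1.80, -0.22, 1.35, 1.77 and -0.47 in GW2580 1 to 5. All 5 GW2580 libraries were thus above Vehicle 1 to 4, and Vehicle 5 fell among the highest 4 libraries. The Vehicle mean was -0.93 ± 1.42 and the GW2580 mean 0.85 ± 1.10 (SD, n = 5).

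Sex was balanced between the groups, and the difference between GW2580 and Vehicle did not differ detectably between male and female mice for any marker. The interaction p in edgeR ranged from 0.456 for Lyve1 to 0.914 for Cbr2. For Mrc1 the log2 fold change was 0.72 in the 2 against 2 male mice and 1.30 in the 3 against 3 female mice. Ms4a7 had -1.43 and -1.13 and F13a1 had 1.35 and 0.90 in male and female mice. Each of the 6 markers kept its direction in both sexes.

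Levels of the markers were compared with each other per length, in TPM, which divides the reads by gene length within each library, computed from the reads and the gene lengths. Over the 10 libraries the order was Cbr2, F13a1, Ms4a7, Mrc1, Lyve1 and Cd163. With Vehicle, Cbr2 had 54.7 ± 21.8 TPM, Ms4a7 17.1 ± 8.86, F13a1 12.2 ± 10.6, Lyve1 5.16 ± 1.37, Mrc1 4.80 ± 1.12 and Cd163 2.12 ± 1.67 (SD, n = 5). With GW2580, Cbr2 had 38.9 ± 19.7 TPM, F13a1 34.9 ± 23.6, Mrc1 14.3 ± 7.08, Lyve1 12.6 ± 8.99, Ms4a7 9.57 ± 3.27 and Cd163 5.01 ± 2.91. Ms4a7 was the second highest marker with Vehicle and the second lowest with GW2580. Of the 5 pairs of neighbours in the order over all libraries, only Lyve1 and Cd163 differed beyond their spread. Lyve1 was higher in 9 of 10 libraries, by 1.37 ± 0.88 on the log2 scale of TPM plus 0.1 (SD, n = 10, exact sign-flip permutation p = 0.00586, adjusted over the 5 pairs p = 0.0293). When Cd163 was divided by only the 3147 exon bases that it shares with no other gene, an alternative chosen after seeing the data, 0 of 5 pairs passed. Cbr2 exceeded F13a1 in 7 of 10 libraries (exact p = 0.0508, adjusted p = 0.127). Microglial genes were far more abundant in the same libraries. Tmem119 averaged 2465 ± 457 TPM with Vehicle and 5489 ± 2191 with GW2580.

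**Figure D3:**
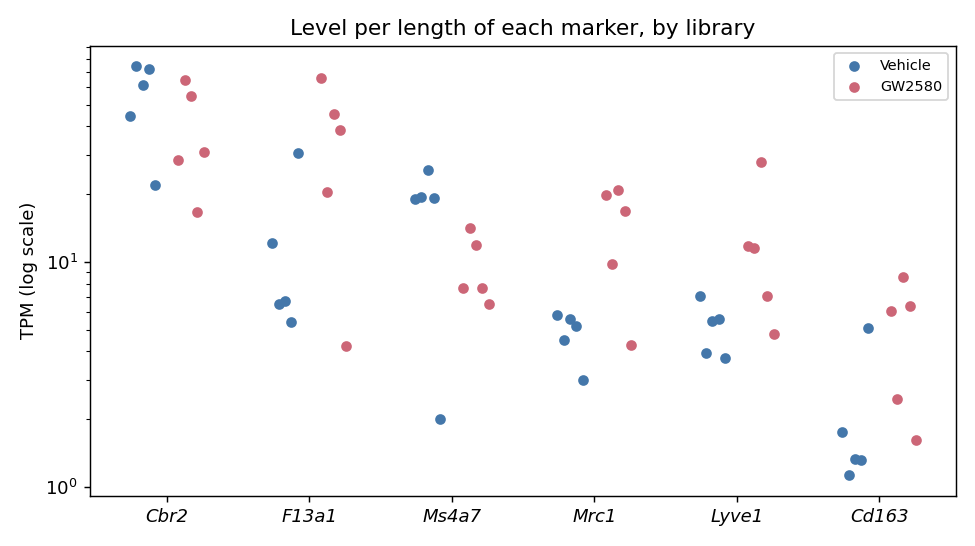
TPM of the 6 tested markers on a log scale, with 5 Vehicle (blue) and 5 GW2580 (red) libraries each, in the order of their mean log2 level over all libraries. Cbr2 is highest and Cd163 lowest, and the ranges of neighbouring genes overlap.

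Across the 10 mice the markers did not vary as one block. Of 15 pairs, 3 were correlated over all libraries at an adjusted Pearson p under 0.05, and they joined the 6 genes into 3 couples without overlap. Cd163 and F13a1 had r = 0.90 (permutation p = 0.00014, adjusted p = 0.0021) and Spearman's rho = 0.87 (permutation p = 0.00233, adjusted p = 0.0276). Without the 2 libraries farthest from the median of Cd163, GW2580 3 and Vehicle 5, r was 0.91, and within the groups, with group means removed, it was 0.88 (exact permutation p = 0.00146, adjusted p = 0.013).

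Ms4a7 and Cbr2, the 2 genes on the lower side, had r = 0.87 (permutation p = 0.00154, adjusted p = 0.0116) and rho = 0.84 (permutation p = 0.00368, adjusted p = 0.0276). The relation did not rest on single libraries, since r was 0.90 without Vehicle 5 and GW2580 4 and 0.85 within the groups (exact permutation p = 0.00174, adjusted p = 0.013). Both couples also held when levels were taken relative to the microglial genes (r = 0.87 and 0.85). Mrc1 and Lyve1 had r = 0.83 (permutation p = 0.00444, adjusted p = 0.0222) and rho = 0.68 (permutation p = 0.0344, adjusted p = 0.103). This relation rested on GW2580 3 and Vehicle 5, since r was 0.42 without them, and it was also 0.42 relative to the microglial genes.

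Over all libraries the Pearson relations between the couples were weaker. Mrc1 and Ms4a7 had r = 0.25 (permutation p = 0.481, adjusted p = 0.516), and Cd163 and Ms4a7 had r = -0.47 (permutation p = 0.169, adjusted p = 0.282) with rho = -0.73 (permutation p = 0.0209, adjusted p = 0.103). Relative to the microglial genes, Cd163 and Ms4a7 had r = -0.84 (permutation test, adjusted p = 0.0146). Without Vehicle 5, where Mrc1 was low and Cd163 high, Mrc1 and Cd163 had r = 0.95 and 5 of 15 pairs passed. With all libraries Mrc1 and Cd163 had r = 0.55 (permutation p = 0.106, adjusted p = 0.282). Within the groups, Lyve1 and Ms4a7 of different couples had r = 0.63 (exact permutation p = 0.00958, adjusted p = 0.0479). By the same test Lyve1 and Cbr2 had r = 0.74 (adjusted p = 0.108) and Cd163 and Ms4a7 r = -0.37 (adjusted p = 0.431). Mrc1 and Lyve1 had r = 0.83 there (adjusted p = 0.0544), so the 3 couples were less distinct within the groups.

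**Figure D4:**
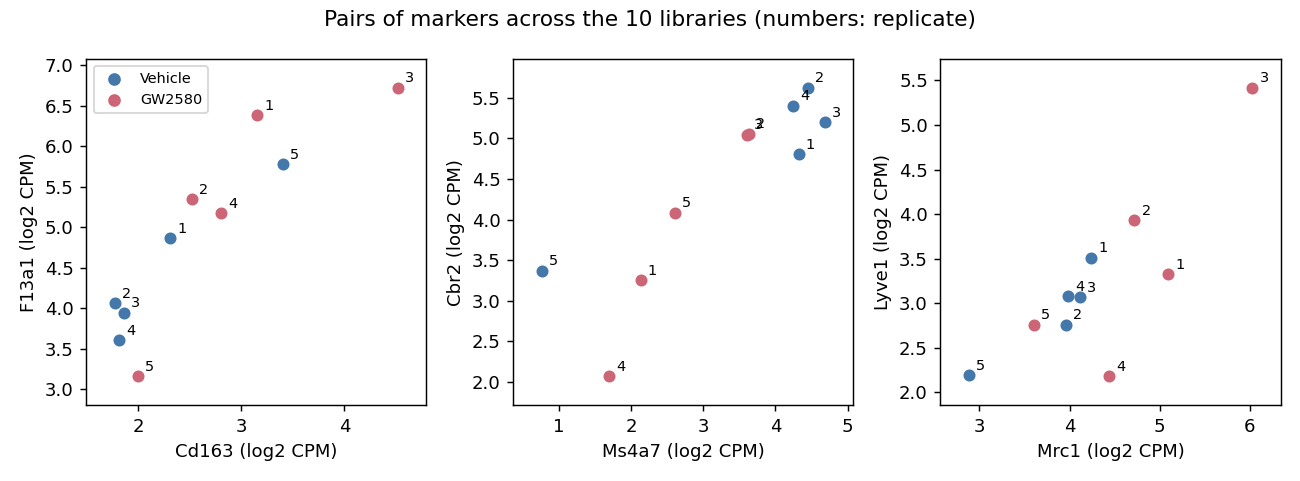
Log2 CPM of the 3 couples of markers across 10 libraries, Vehicle in blue and GW2580 in red, with replicate numbers. Points of both groups lie along one line for Cd163 with F13a1 (r = 0.90) and Ms4a7 with Cbr2 (r = 0.87), while Mrc1 with Lyve1 (r = 0.83) depends on GW2580 3 at the top and Vehicle 5 at the bottom.

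A wider list of 26 genes of border-associated macrophages did not share the higher median of the markers. Of its genes, 24 were tested, 1 was past the thresholds on the higher side and 0 on the lower side, 8 had a higher and 16 a lower mean with GW2580, and the median log2 fold change was -0.04. Clec10a, a lectin gene annotated on 2 reference sequences, was at 0 reads in all libraries. The gene past the thresholds was Slc40a1, the iron exporter ferroportin. It had 88.0, 82.5, 91.7, 83.9 and 71.6 CPM in Vehicle 1 to 5 and 205, 132, 340, 137 and 61.1 CPM in GW2580 1 to 5 (log2 fold change 1.07, SE 0.40, edgeR unadjusted p = 0.0192, adjusted p = 0.28). As with Mrc1, GW2580 1 to 4 were above every Vehicle library and GW2580 5 was not. Stab1, a scavenger receptor of the same cells, averaged 162 ± 79.0 CPM with Vehicle and 210 ± 137 with GW2580 (log2 fold change 0.37, SE 0.44). Apoe, a lipid carrier made by these macrophages and by other glia, averaged 5504 ± 2066 and 2888 ± 1787 CPM (log2 fold change -0.93, SE 0.52). Ms4a6c, a relative of Ms4a7 that was named after its values were seen, had a log2 fold change of -0.79 (SE 0.49, edgeR unadjusted p = 0.134). The relatives Ms4a4a and Ms4a6b on the same list had smaller ones, -0.39 (SE 0.53) and -0.35 (SE 0.40). Of 7 MHC class II genes, which mark a subset of border-associated macrophages, 2 were tested and 0 were past the thresholds. H2-Ab1, H2-Eb1 and H2-DMb1 were listed at 0 reads throughout. They are annotated on 4 reference sequences each, as are H2-Aa and H2-DMa, so their reads are no measure of expression. The summed level, nearly all of it Cd74, ranged from 1059 to 2122 CPM with Vehicle and from 630.7 to 2335 with GW2580. Cd74, the invariant chain, averaged 1745 ± 443 and 1189 ± 700 CPM (log2 fold change -0.55, SE 0.45), and Ciita, the class II transactivator, 13.9 ± 2.59 and 11.5 ± 5.65 CPM (log2 fold change -0.27, SE 0.34).

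The summed levels of genes of choroid plexus epithelium and of meningeal fibroblasts, cells beside which many of these macrophages live, were highest in Vehicle 5. In its group this library was lowest in Mrc1, Lyve1, Ms4a7 and Cbr2 and highest in Cd163 and F13a1. For choroid plexus epithelium, 5 of 6 genes were tested and all 5 were past the thresholds on the lower side, and their summed level ranged from 1239 to 28324 CPM with Vehicle and from 176 to 3556 with GW2580. For meningeal fibroblasts, 8 of 8 were tested, 5 were past the thresholds on the lower side, and the sum ranged from 52.0 to 1038 CPM with Vehicle and from 39.0 to 67.5 with GW2580. None of the 6 or 8 genes was at 0 in all libraries. These calls rested on Vehicle 5. Without it, 1 choroid plexus gene was past the thresholds on the higher side and 0 on the lower side (median log2 fold change -0.19), and 1 fibroblast gene was past them on the lower side (median -0.30). Without GW2580 5 the counts on the lower side were 5 and 4. Without Vehicle 5 the differences of Ms4a7 and Cbr2 were larger (-1.52 and -1.01). For microglia, 14 of 15 genes were tested, 2 were past the thresholds on the higher side, and the sum ranged from 17232 to 32085 CPM with Vehicle and from 22299 to 65736 with GW2580, highest in GW2580 3. With the mean log2 CPM of the astrocyte, oligodendrocyte and neuronal genes as a term, Mrc1 had a log2 fold change of 0.96 (edgeR unadjusted p = 0.044). In that fit Ms4a7 had -1.40 (edgeR unadjusted p = 0.0265) and was the 1 marker past the thresholds, beside 7.15% of all genes. Beyond that fit and the scaling to microglial genes, the part of the other tissues and of the share of microglia in the marker differences was not tested.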

How the data were processed

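RNA was sequenced from 10 libraries (5 Vehicle and 5 GW2580), 1 per mouse, grouped by the sample titles. The authors aligned reads with STAR to GRCm38 and counted fragments per gene with featureCounts (version 1.6.3). The deposited values are raw counts per NCBI gene. Symbols came from the RefSeq GRCm38 table (46029 of 46152 genes matched). The 7 markers and the other gene lists were chosen with earlier results of these data known.

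The test took the 28419 genes that exceeded 1 CPM in 3 or more libraries, with TMM factors and the quasi-likelihood F test of edgeR (version 4.0.16), treatment as the only term, after the filter and thresholds of the study, and Benjamini-Hochberg adjustment over all tested genes. The test was checked on simulated data. Exact permutation tests used log2 CPM with a prior count of 2. Relations used 100000 permutations, and within groups all 14400 arrangements. TPM used a pseudocount of 0.1 on the log scale. Alternatives were other scalings (library size alone, RLE, microglial genes), other filters, DESeq2 (1.42.0), limma (3.58.1), added terms, and left-out libraries. A trend with gene length, the Cd163 length without shared bases, libraries left out of the order, the relations and the other gene lists, and a log2 scale in the search for distant libraries were added after seeing the data.

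Genes named beside the markers were up to 3 of highest mean CPM in each list and, in the wider macrophage list, any past the thresholds. The 5 genes outside all lists whose log2 CPM followed the mean standardised level of the 6 tested markers most closely were named as well. The kit is not stated to mark strand, so reads of Cd163 and its antisense partner cannot be told apart. Intervals between mice rest on 5 animals per group.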

Additional observations from a re-analysis of the deposited data

Results flagged for a closer look

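In 12 sets of 5 libraries (6 markers in 2 groups), 5 had a library far from the other 4, where the gap to its nearest neighbour exceeded 0.71 of the whole range. Chance gives about 1 in 20 such sets for independent, normally distributed values, which CPM values of related genes are not, and on the log2 scale 2 of the 5 (Mrc1 and Ms4a7 in Vehicle 5) were still above 0.71. Vehicle 5 had the lowest Mrc1 level of its group, 7.25 CPM, with 15.5 CPM next above. It had the lowest Ms4a7 level too, 1.57 CPM, with 18.8 CPM next above, and the highest Cd163 level, 10.4 CPM, with 4.84 CPM next below. GW2580 3 had the highest Lyve1 level of its group, 42.6 CPM, with 15.2 CPM next below, and the highest Cd163 level, 22.8 CPM, with 8.78 CPM next below. Both libraries also had the most fragments assigned to genes in their groups, 20854218 and 26079343. Their shares of unique fragments outside annotated exons were the lowest in their groups, 47.7% and 47.1%. The highest shares were 59.8% in Vehicle 4 and 70.8% in GW2580 4. The differences of these markers without each of these libraries are given in the report.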

How the results depend on the processing

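The direction of each of the 6 tested markers was the same under all 28 alternatives. The number past both thresholds, 1 with all libraries, was 0 with limma-voom, with a replicate block, with female mice only and at an adjusted p under 0.05. It was 2 with RLE size factors, scaling to the microglial genes, no filter, DESeq2, the edgeR likelihood ratio test and male mice only. It was 3 with library size alone and without Vehicle 2 and Vehicle 5, 4 with the share of unique fragments outside annotated exons as a term, and 5 without Vehicle 5 and GW2580 5, with or without removal of the trend with gene length. The share of all genes past the thresholds in these fits ran from 3.09% (female mice only) through 6.09% (the exon term), 8.5% (without Vehicle 2 and Vehicle 5) and 19.2% (male mice only) to 22.6%. This share was 10.6% with limma-voom, 8.99% with the replicate block, 11% with RLE size factors, 10.9% with no filter and 10.7% with DESeq2. Both the edgeR likelihood ratio test and the scaling to microglial genes gave 12.3%, and library size alone gave 10.5%. With each library left out in turn the number of markers ranged from 1 to 4. It was highest without Vehicle 5 (Cd163, F13a1, Ms4a7 and Cbr2, but not Mrc1), where 12.9% of all genes were past the thresholds. It was 3 without GW2580 5 (Mrc1, Cd163 and F13a1, beside 17.6% of all genes). It was 2 without GW2580 2 (Mrc1 and Ms4a7, beside 10%) or GW2580 4 (Mrc1 and Lyve1, beside 8.62%). Without GW2580 3 the count was also 1, beside 8.16% of all genes, but it was Ms4a7 and not Mrc1. The same held with the mean of the astrocyte, oligodendrocyte and neuronal genes as a term, beside 7.15% of all genes. Mrc1 was past both thresholds in 19 of the 28 alternatives. The median log2 fold change of 0.96 was lowest, 0.20, with scaling to the microglial genes, and ranged from 0.26 to 1.12 with each library left out, lowest without GW2580 3.

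Replicate numbers did not pair the libraries, as same-numbered deviations correlated at -0.57 to 0.39 and 1 of 5 numbers had its partner as the best match. With the replicate block Mrc1 had a log2 fold change of 0.94 (edgeR unadjusted p = 0.0211).

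In the order by level per length, 1 neighbouring pair differed. The number was 0 with Vehicle libraries only, where 5 values cannot pass, 0 with the unshared length of Cd163, and 0 to 1 with each library left out, 0 in 7 of 10. The number of correlated pairs, 3, ranged from 2 to 5 with each library left out, 5 without Vehicle 5. Relative to the microglial genes it was also 3, with Cd163 and Ms4a7 in place of Mrc1 and Lyve1. Ms4a7 in Vehicle 5 rested on 28 reads, although this library had the most fragments assigned to genes in its group. Pf4, with at most 4 reads per library, was limited by its annotation on 2 reference sequences. The causes of these shifts were not tested.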

Other observations

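The mean of the standardised log2 CPM of the 6 tested markers was 0.18, -0.10, -0.04, -0.16 and -0.68 in Vehicle 1 to 5 and 0.19, 0.42, 1.56, -0.64 and -0.74 in GW2580 1 to 5. Lyve1 (r = 0.97) and Mrc1 (r = 0.86) followed it most closely, and Ms4a7 (r = 0.43) and Cbr2 (r = 0.46) least, each being part of the mean itself. Among 14696 genes outside all lists with a mean of at least 5 CPM, those with the highest Pearson r to this mean over the 10 libraries were Clk4 (0.99), C3ar1 (0.99), Asah1 (0.99), Sptlc2 (0.98) and Ctsc (0.98). Clk4 encodes a kinase of splicing factors, C3ar1 the receptor for complement C3a, Asah1 acid ceramidase, Sptlc2 a subunit of serine palmitoyltransferase and Ctsc a lysosomal cathepsin. Their mean levels were 89.9 and 109 CPM (Clk4), 258 and 336 (C3ar1), 271 and 335 (Asah1), 71.7 and 89.8 (Sptlc2) and 615 and 767 (Ctsc) with Vehicle and GW2580. The likeness is a description over 10 libraries that share their scaling.

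Dendritic cell genes, which overlap with border-associated macrophages in the meninges and choroid plexus, had 8 of 8 tested, 1 past the thresholds on the higher side and a summed level of 75.6 to 195 CPM with Vehicle and 98.0 to 186 with GW2580. Flt3, the growth factor receptor of dendritic cells, averaged 19.0 ± 4.18 and 17.5 ± 1.43 CPM. Blood endothelial genes, the wall along which perivascular macrophages lie, had 8 of 8 tested, 0 past the thresholds and sums of 62.6 to 157 and 80.2 to 108 CPM. Astrocyte genes had 1 of 6, oligodendrocyte genes 4 of 5 and neuronal genes 1 of 6 tested genes past the thresholds on the lower side. Their sums ranged from 151 to 672, from 115 to 17458 and from 52.7 to 482 CPM with Vehicle and from 139 to 289, from 141 to 1689 and from 45.6 to 131 CPM with GW2580. The oligodendrocyte sum was 17458 CPM in Vehicle 2, 3675 in Vehicle 5 and 115 to 268 in the other Vehicle libraries, and its median was higher with GW2580 (462 CPM) than with Vehicle (268 CPM). Without Vehicle 2 and Vehicle 5, 2 of 5 oligodendrocyte genes were past the thresholds on the higher side and 0 on the lower side.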
